A study of Bos taurus with 7 samples.

Results

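Short fragments of the glycine, glutamate and aspartate transfer RNAs (tRNA-Gly, tRNA-Glu and tRNA-Asp) were followed in the small RNA of commercial cow's milk. A sequence of 12 to 15 nt was taken as a member when it matched one of 9 listed mature cytosolic tRNAs of these amino acids exactly, on its own strand and with the CCA tail added. This gave 365 distinct fragments of the 229971 sequences in the 7 libraries, 149728 of which were 12 to 15 nt long. tRNA-Gly had 167 fragments, tRNA-Glu 140 and tRNA-Asp 53, and the other 5 matched more than 1 of them and were counted apart. Fragments that began at base 1 are called 5' end fragments, those that ended in the CCA tail 3' end fragments, and all others inner fragments. The rule uses no measured level.

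The series compared 4 milk fractions with milk from Holstein cows. The fractions are titled MP 12k, 35k, 70k and 100k, and the labels spell out neither MP nor k. Each fraction was 1 library without a replicate. The 3 milk libraries are titled milk 1, 2 and 3. The labels describe all 7 samples as a pasteurized, homogenized, skimmed and filtered food product, and name no separate cows or cartons behind the milk libraries. Every p-value below is thus a statement about how these particular libraries vary, and that variation may be technical. The files list reads of 8 to 15 nt only, 1817538 to 2560280 per fraction and 1658606 to 4572650 per milk library. Levels are given per 1000000 of these reads (RPM), so they are shares of this size window and not amounts of RNA in the milk. Fewer cells or vesicles and less RNA in each of them cannot be told apart in such material.

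A tRNA carries an amino acid to the ribosome and reads the codon with its anticodon. Its chain folds into an acceptor stem, which ends in the CCA tail that holds the amino acid, and into the D, anticodon and T arms, each closed by a loop. Ribonucleases such as angiogenin cut tRNAs in these loops, and long 5' fragments of tRNA-Gly and tRNA-Glu, cut at the anticodon, are among the common tRNA fragments of mammalian body fluids. The fragments here are shorter than those. They are named by tRNA, by anticodon in DNA letters, and by their first and last position, counted from 1 at the 5' end. The anticodon lies at positions 33 to 35 in the listed tRNA-Gly with anticodons GCC and CCC, and at 34 to 36 in the others. RefSeq annotates 481 tRNA-Gly, 207 tRNA-Glu and 30 tRNA-Asp genes in the bovine assembly ARS-UCD2.0, so a fragment stands for a gene family and for no single locus.

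tRNA-Gly fragments were the most abundant of the 3 in every library. They had 5039.55 RPM in the 12k fraction, 5588 in 35k, 3352 in 70k and 2026 in 100k, against 4238.5, 5283 and 5896 RPM in milk 1, 2 and 3. The 12k and 35k fractions lay within the range of milk, and the 70k and 100k fractions below all milk libraries. In milk the mean was 5139 ± 838 RPM (SD, n = 3), second among the 21 listed tRNA isotypes. tRNA-Glu fragments had 325 RPM in 12k, 721 in 35k, 279 in 70k and 178 in 100k, against 589, 778 and 742 RPM in milk. The 35k fraction lay within the milk range and the others below it. tRNA-Asp fragments had 78.8 RPM in 12k, 87.1 in 35k, 86.4 in 70k and 80.0 in 100k, against 113, 233 and 213 RPM in milk. All 4 fractions lay below every milk library, and they differed among themselves far less than the milk libraries did. The 5 fragments shared between these tRNAs summed to 0.433 RPM in 12k, 10.2 in 35k, 6.60 in 70k and 6.71 in 100k, against 9.04, 10.1 and 7.22 RPM in milk. Where no read was seen, up to 3 reads remain possible, or 0.656 to 1.81 RPM depending on the library. Reads matched backwards, as a measure of chance matches, gave 9.525 RPM for tRNA-Gly in 12k, and for tRNA-Glu 7.36 RPM in 12k and 19.9 RPM in milk 1. They gave no reads elsewhere and none for tRNA-Asp. The highest of these values, 19.9 RPM, lies above the rarer single fragments below. It also lies above some end sums, such as 15.4 RPM at the 3' end of tRNA-Glu in 70k. The sum of each of the 3 tRNAs lies above it in every library. The measure rests on 1 backward sequence for tRNA-Gly and 1 for tRNA-Glu. It does not cover other RNAs that hold the same bases.

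**Figure D1:**
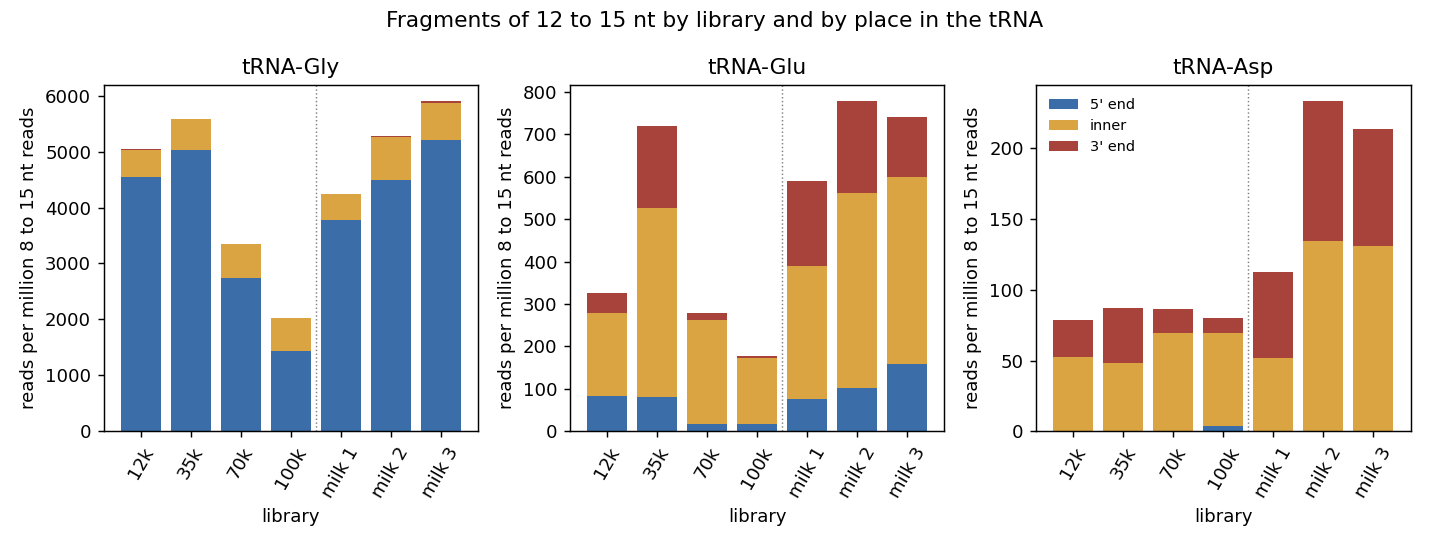
Levels in RPM, over all reads of 8 to 15 nt, of tRNA-Gly, tRNA-Glu and tRNA-Asp fragments in each library, with the 4 fractions left of the 3 milk libraries and the bars split by place in the tRNA. tRNA-Gly is mostly 5' end, tRNA-Glu mostly inner, and tRNA-Asp almost only inner and 3' end, and the 3' end part is smallest in the 70k and 100k fractions.

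The 3 tRNAs were read from different places. In milk, 87.5% ± 2.10 of the tRNA-Gly reads were 5' end fragments, 12.2% ± 2.01 were inner and 0.281% ± 0.196 were 3' end fragments (SD, n = 3). tRNA-Glu had 15.9% ± 4.91 of its milk reads at the 5' end, 57.2% ± 3.53 inside and 26.9% ± 7.41 at the 3' end. tRNA-Asp had 55.0% ± 8.01 inside and 45.0% ± 8.01 at the 3' end, and its 5' end gave 8 reads of 1 fragment in the 100k fraction and none in the other 6 libraries. In all, the 365 fragments were 21.6% of the 1691 different windows of 12 to 15 nt that the 9 listed tRNAs hold. Only 32 of them occurred in all 7 libraries, and 111 occurred in 1.

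One fragment made up most of tRNA-Gly. It covered positions 1 to 15 of the tRNAs with anticodons GCC and CCC, which are identical there, so the reads cannot be divided between them. It had 4267 RPM in 12k, 4558 in 35k, 2688 in 70k and 1391 in 100k, against 3493, 3961 and 4779 RPM in milk, where it held 79.5% ± 3.95 of the tRNA-Gly reads. The 70k and 100k fractions lay below all milk libraries and the other two within their range. Position 15 lies in the D loop. It is also the end of the size window, and 97.1% ± 0.641 of the 5' end reads of tRNA-Gly in milk were 15 nt long, so a longer fragment with the same start would not appear in these files. In tRNA-Glu, 59.2% ± 0.646 of the 5' end reads in milk were 15 nt long. Over the 3 tRNAs together the share was 96.2% ± 0.679, while 5' end fragments of the other listed tRNAs had 15 nt in 5.58% ± 1.05 of their milk reads. In the fractions the share in those other tRNAs was 8.64% in 12k, 6.51% in 35k, 33.98% in 70k and 46.4% in 100k. In the 3 tRNAs it was 97.1% in 12k, 94.99% in 35k, 98.5% in 70k and 98.6% in 100k. The contrast was thus smaller in 70k and 100k than in milk.

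The other tRNA-Gly fragments did not all follow the leading one. The same stretch of the tRNA with anticodon TCC, positions 1 to 15, had 106 RPM in 12k, 237 in 35k, 12.1 in 70k and 22.7 in 100k, against 169, 339 and 250 RPM in milk. It stood at 20.9 times less in 70k than the milk mean, while the leading fragment stood at 1.52 times less. The inner fragment at positions 19 to 32 of anticodons GCC and CCC ends on the base before the anticodon. It had 64.9 RPM in 12k, 44.1 in 35k, 224 in 70k and 263 in 100k, against 68.1, 64.5 and 105 RPM in milk. The 70k and 100k fractions were above every milk library, at 2.83 and 3.33 times the milk mean. Its shorter form at 19 to 31 had 11.3 RPM in 12k, 17.2 in 35k, 39.6 in 70k and 52.6 in 100k, against 16.3, 17.6 and 1.09 RPM in milk. All 5 fragments that start at position 19, a group put together after their values were seen, held 1.598% of the tRNA-Gly reads in 12k, 1.10% in 35k, 7.88% in 70k and 15.6% in 100k, against 1.82% ± 0.216 in milk (SD, n = 3). The fragment at 16 to 30, which starts where the leading fragment ends, did not stand above milk in any fraction. It had 46.3 RPM in 12k, 94.1 in 35k, 12.1 in 70k and 33.01 in 100k, against 59.1, 109 and 107 RPM in milk.

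Among the less abundant tRNA-Gly fragments, positions 2 to 15 of anticodons GCC and CCC had 120 RPM in 12k, 59.0 in 35k, 60.5 in 70k and 23.2 in 100k, against 66.3, 115 and 114 RPM in milk. The form of anticodon GCC that differs within positions 1 to 15 had 61.9 RPM in 12k, 15.2 in 35k, 12.1 in 70k and 5.16 in 100k, against 23.5, 34.8 and 35.6 RPM in milk. It was above every milk library in 12k and below every one in the other fractions. Fragments found only in the tRNA with anticodon TCC made up 4.47% of the tRNA-Gly reads in 12k, 7.86% in 35k, 1.00% in 70k and 2.04% in 100k, against 7.62% ± 2.42 in milk. The share in 12k, 70k and 100k was below that of every milk library. 3' end fragments of tRNA-Gly were scarce throughout, with 15.6 RPM in 12k, 12.5 in 35k, 1.65 in 70k and 0 in 100k, against 2.41, 19.2 and 24.9 RPM in milk. With no read among 1938689, the 100k fraction was at least 10.03-fold lower than the milk mean, set against 3 reads.

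**Figure D2:**
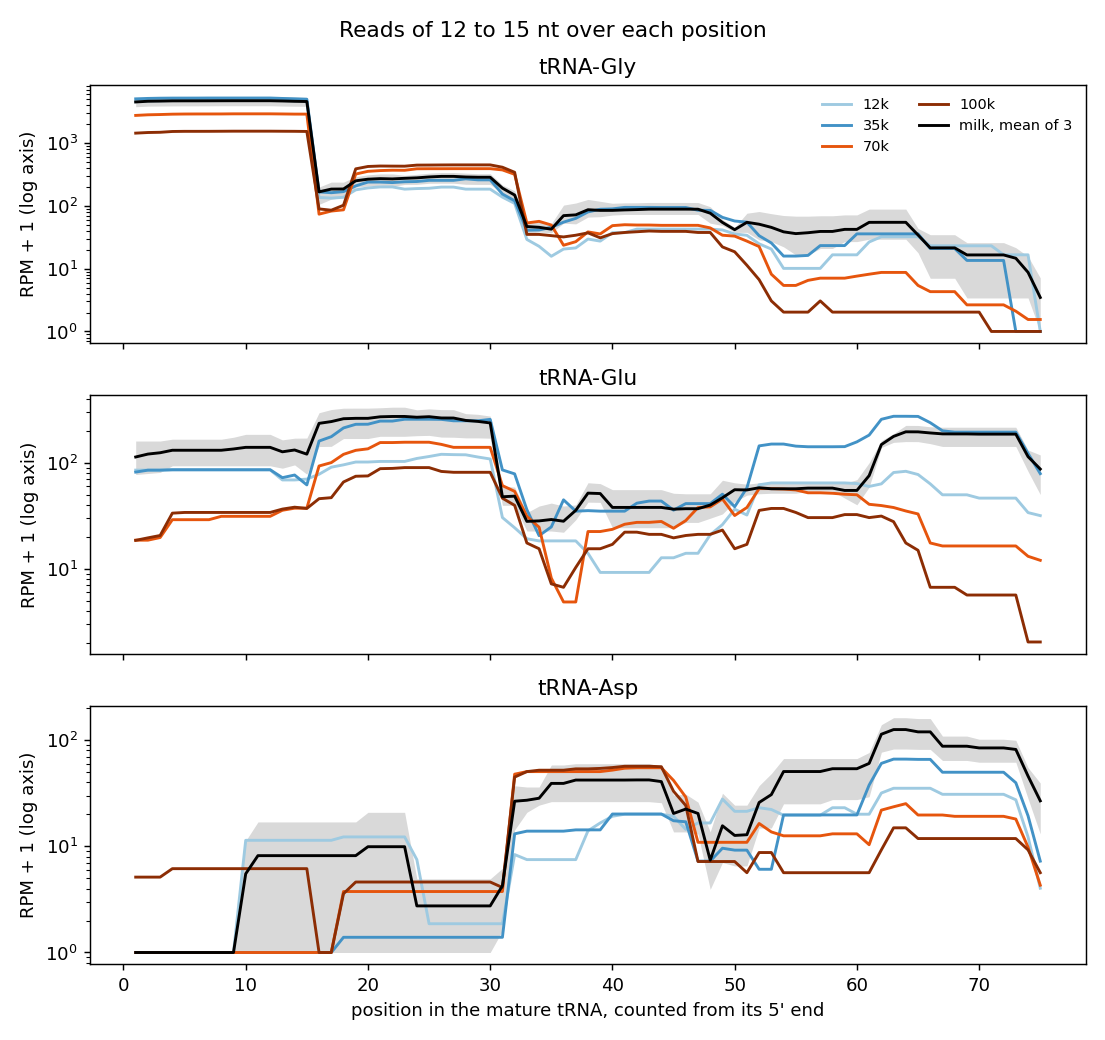
Reads of 12 to 15 nt over each position of the 3 tRNAs, in RPM plus 1 on a log axis, with 1 line per fraction and a black line for the mean of the 3 milk libraries (grey band: lowest to highest milk library). tRNA-Gly has a plateau over positions 1 to 15, where 70k and 100k lie below milk, and over positions 19 to 32 they lie above it, while toward the 3' end of all 3 tRNAs they lie below it.

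In tRNA-Glu the fragments of the 5' side abutted as in tRNA-Gly, but with the order of abundance reversed. The abutting fragments of both tRNAs are 15 nt long, the end of the size window. Longer fragments with the same starts would not appear in these files, so positions 15 and 30 need not be ends of the RNA in milk. Positions 16 to 30 of anticodon CTC, which run from the D loop to the anticodon stem, had 65.4 RPM in 12k, 151 in 35k, 73.7 in 70k and 34.6 in 100k, against 123, 211 and 206 RPM in milk. Positions 1 to 15 of the same tRNA had 57.1 RPM in 12k, 51.2 in 35k, 7.15 in 70k and 11.9 in 100k, against 45.2, 59.6 and 95.8 RPM in milk. In both, 70k and 100k lay below all milk libraries, and for 16 to 30 also 12k. In counts, the fragment at 16 to 30 outnumbered the one at 1 to 15 in every library, by 151 to 132 reads in 12k, 386 to 131 in 35k, 134 to 13 in 70k and 67 to 23 in 100k, against 204 to 75, 647 to 183 and 943 to 438 reads in milk. In tRNA-Gly, with all anticodons counted together, milk had 98 against 6113, 335 against 13312 and 490 against 23160 reads. The reads at 16 to 30 were all of anticodons GCC and CCC, whose leading fragment at 1 to 15 alone had 5793, 12165 and 21854 reads. tRNA-Asp had no read at 16 to 30 in any library.

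The 3' end of tRNA-Glu differed widely between libraries. It had 45.5 RPM in 12k, 194 in 35k, 15.4 in 70k and 4.64 in 100k, against 200, 216 and 142 RPM in milk. The 35k fraction lay within the milk range, and the others below it. As a share of the tRNA-Glu reads, the 3' end took 13.98% in 12k (95% Wilson interval 11.7% to 16.6%), 26.9% in 35k (25.0% to 29.0%), 5.52% in 70k (3.85% to 7.87%) and 2.60% in 100k (1.37% to 4.87%), against 26.9% ± 7.41 in milk. The inner share was 60.1% in 12k, 61.8% in 35k, 88.2% in 70k and 87.6% in 100k, against 57.2% ± 3.53 in milk. In milk, most 3' end reads began at position 62, in the T arm. The 9 fragments of this start had 13.9 RPM in 12k, 89.1 in 35k, 5.502 in 70k and 2.06 in 100k, against 104, 109 and 103 RPM in milk, a spread of only 3.67 RPM (SD) between the milk libraries. The leading one, anticodon CTC at 62 to 73, had 4.33 RPM in 12k, 10.5 in 35k, 2.20 in 70k and 0 in 100k, against 33.8, 53.1 and 29.7 RPM in milk. It ends on the first base of the CCA tail. In milk, 39.3% ± 2.98 of the 3' end reads of tRNA-Glu ended on the first tail base, 15.6% ± 8.63 on the second and 45.1% ± 9.97 on the last.

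Inner fragments of the T arm of tRNA-Glu with anticodon TTC differed from each other although they overlapped. Positions 50 to 61 had 10.4 RPM in 12k, 14.1 in 35k, 0.550 in 70k and 0 in 100k, against 31.4, 47.5 and 16.8 RPM in milk. Positions 52 to 65 had 10.8 RPM in 12k, 21.1 in 35k, 9.90 in 70k and 6.71 in 100k, against 0, 0 and 0.219 RPM in milk. These were 25, 54, 18 and 13 reads in the fractions and 1 read in all of milk, so this fragment was above every milk library in every fraction. Positions 52 to 63 had 2.60 RPM in 12k, 26.2 in 35k, 6.05 in 70k and 9.28 in 100k, against 0, 0.977 and 5.90 RPM in milk. The 6 tRNA-Glu fragments that start at position 52, of any anticodon, were grouped after their values were seen. They summed to 69, 222, 35 and 36 reads in the fractions, against 1, 9 and 69 reads in milk. In RPM this was 29.9 in 12k, 86.7 in 35k, 19.3 in 70k and 18.6 in 100k, against 0.603, 2.93 and 15.1 in milk. The group includes positions 52 to 66 of anticodon CTC, with 24, 63, 1 and 0 reads in the fractions, against 1, 5 and 39 in milk. In RPM that CTC fragment was above every milk library in 12k and 35k and below every one in 70k and 100k. The backward matches of tRNA-Glu, from 1 sequence, had 19.9 RPM in milk 1, 7.36 RPM in 12k and no reads in the other libraries. The 19.9 RPM of milk 1 was as high as most values of these T arm fragments outside 35k. By anticodon, fragments particular to CTC held 71.2% of the tRNA-Glu reads in 12k, 65.1% in 35k, 74.8% in 70k and 76.9% in 100k, against 73.4% ± 4.30 in milk, where the lowest milk library had 68.7%.

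tRNA-Asp gave the fewest reads, 155 to 223 in a fraction and 187 to 975 in a milk library. Its leading milk fragment, positions 62 to 73, is the counterpart of the tRNA-Glu 3' end fragment of that place. It had 15.2 RPM in 12k, 12.5 in 35k, 6.05 in 70k and 1.03 in 100k, against 31.95, 37.4 and 20.1 RPM in milk, and every fraction was below every milk library. The 3 fragments starting at 62 had 22.9 RPM in 12k, 25.0 in 35k, 11.6 in 70k and 3.61 in 100k, against 53.7, 68.7 and 65.6 RPM in milk. Reads of positions 54 to 66 had 0 RPM in 12k, 13.7 in 35k, 0 in 70k and 0 in 100k, against 10.2, 31.3 and 18.6 RPM in milk. Set against 3 reads, this was at least 15.4-fold lower in 12k, 12.1-fold in 70k and 12.9-fold in 100k than the milk mean.

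The anticodon loop of tRNA-Asp gave a second start, at position 32, which lies 2 bases before the anticodon. The 4 fragments that start there, grouped after their values were seen, held 8.24% of the tRNA-Asp reads in 12k (15 of 182), 13.9% in 35k (31 of 223), 51.0% in 70k (80 of 157) and 53.5% in 100k (83 of 155), against 11.8% ± 1.27 in milk. In RPM they had 6.49 in 12k, 12.1 in 35k, 44.02 in 70k and 42.8 in 100k, against 12.7, 30.9 and 23.4 in milk. The 70k and 100k fractions were above all milk libraries in both measures. The forms of different length differed. Positions 32 to 46 had 0.866 RPM in 12k, 8.98 in 35k, 20.4 in 70k and 13.4 in 100k, against 0.603, 4.88 and 0.656 RPM in milk. Positions 32 to 44 had 0.866 RPM in 12k, 2.73 in 35k, 11.004 in 70k and 22.2 in 100k, against 12.1, 25.7 and 22.7 RPM in milk, so that 100k lay within the milk range. The 3' end share of tRNA-Asp was 33.5% in 12k (95% Wilson interval 27.1% to 40.7%), 44.4% in 35k (38.0% to 51.0%), 19.7% in 70k (14.3% to 26.7%) and 13.5% in 100k (9.04% to 19.8%), against 45.0% ± 8.01 in milk.

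**Figure D3:**
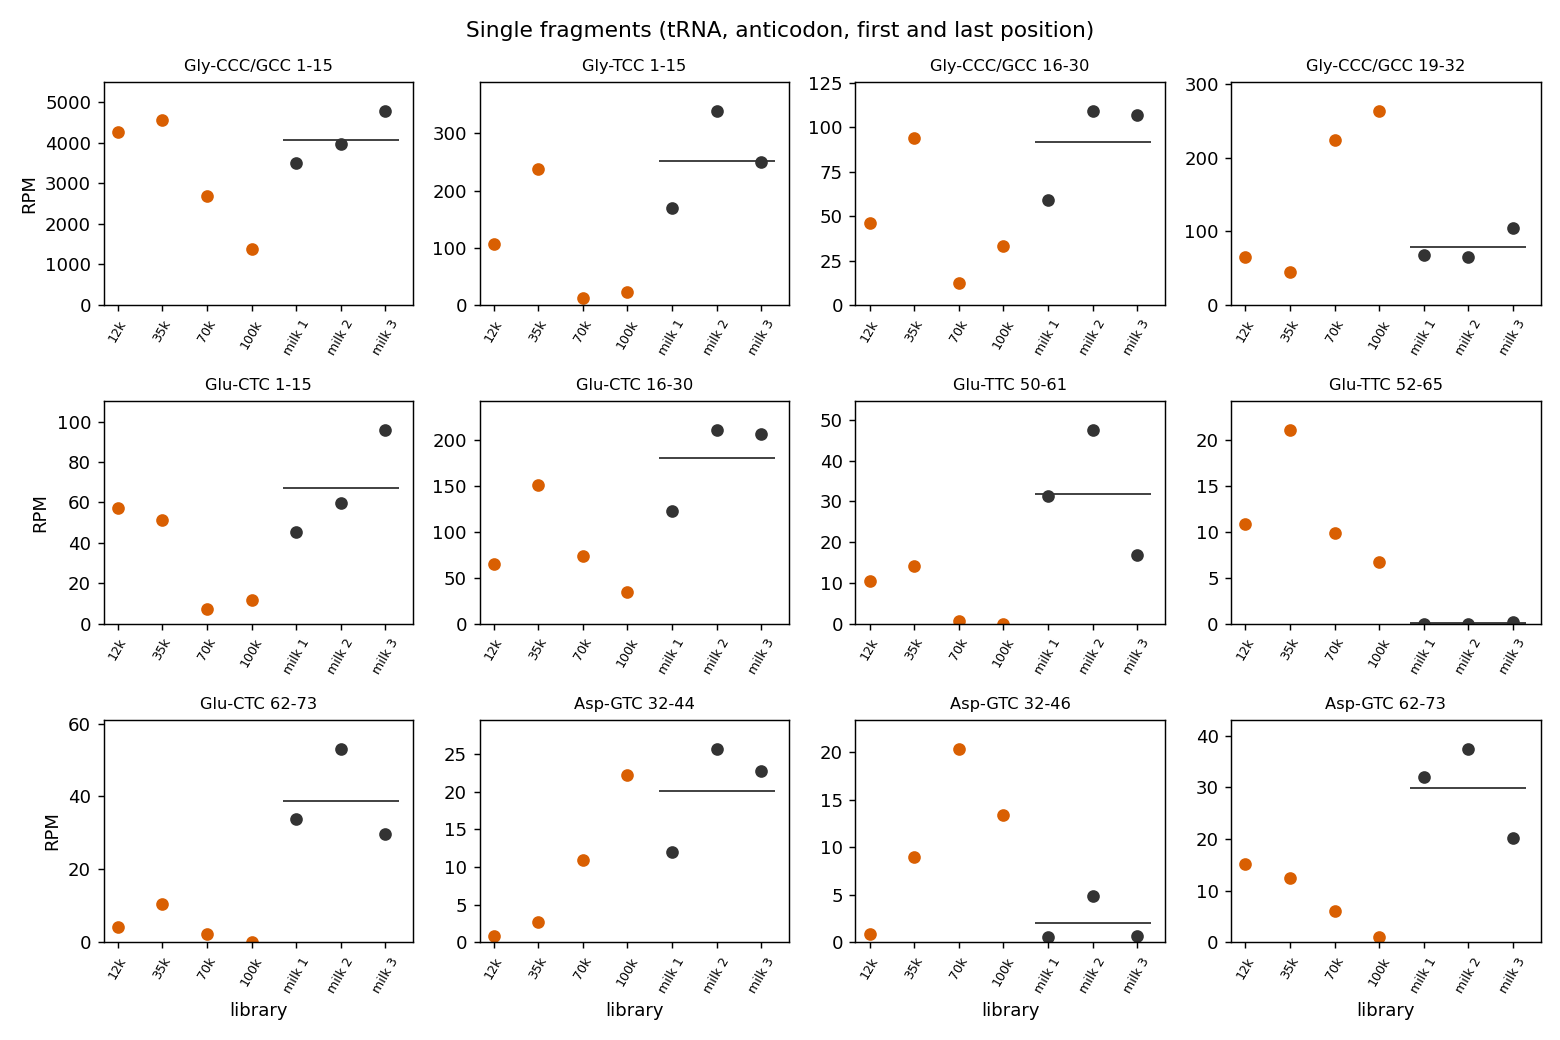
Levels in RPM of 12 named fragments, with 1 point per library, the 4 fractions (orange) left of the 3 milk libraries (dark, line at their mean) and each panel on its own linear axis from 0. Positions 19 to 32 of tRNA-Gly, 52 to 65 of tRNA-Glu and 32 to 46 of tRNA-Asp are above all milk libraries in both 70k and 100k, while the 5' end and 3' end fragments are below them.

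In tRNA-Gly, the 5' end share was 90.2% in 12k (95% Wilson interval 89.6% to 90.7%), 90.1% in 35k (89.6% to 90.6%), 81.8% in 70k (80.8% to 82.8%) and 70.7% in 100k (69.3% to 72.1%), against 87.5% ± 2.10 in milk. The inner share was 9.53% in 12k, 9.64% in 35k, 18.1% in 70k and 29.3% in 100k, against 12.2% ± 2.01 in milk. The 3 tRNAs thus had in common that the inner share in 70k and 100k was above that of every milk library. This was not particular to them. The inner share of tRNA-Lys was 26.4% in 70k and 32.7% in 100k, against a milk mean of 13.7%. That of tRNA-Pro was 92.6% and 95.2%, against 23.8%. Not all listed tRNAs went this way, and tRNA-Val had 48.0% and 46.3%, against 61.6%. Intervals and limits cover counting error only, since the reads carry no molecular identifiers. There were 51 members with at least 100 reads over the 7 libraries, among 4318 sequences of all kinds with as many. In 12k, 25 of the 51 were below every milk library, where 33.2% of all these sequences were below, and 6 were above, where 21.5% of all were above. In 35k, 21 were below (25.5% of all) and 10 above (32.4% of all). In 70k, 34 were below (41.3% of all) and 7 above (34% of all), and in 100k, 37 were below (45% of all) and 8 above (28.4% of all). By place, 11 of the 12 members at the 3' end were below every milk library in 70k and 11 in 100k, beside 65 and 69 of the 78 fragments of other listed tRNAs at that end. At the 5' end, 10 of 11 members were below in 70k and 10 in 100k, beside 18 and 19 of 25 of the other tRNAs. Of the 28 inner members, 13 were below and 7 above every milk library in 70k, and 16 were below and 8 above in 100k. Of the 102 inner fragments of other tRNAs, 70 were below and 3 above in 70k, and 80 were below and 3 above in 100k. The milk libraries are shared by these comparisons, and no test was made of the counts.

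Set beside the 18 other listed tRNA isotypes, tRNA-Gly kept a larger part of its milk level in 70k and 100k than the median of those isotypes. Its ratio to the milk mean was 0.981 in 12k, 1.09 in 35k, 0.652 in 70k and 0.394 in 100k. The medians of the other isotypes were 0.503 in 12k, 0.804 in 35k, 0.158 in 70k and 0.162 in 100k. tRNA-Glu had ratios of 0.463 in 12k, 1.03 in 35k, 0.397 in 70k and 0.254 in 100k, and tRNA-Asp had 0.423 in 12k, 0.468 in 35k, 0.464 in 70k and 0.429 in 100k. In 70k the highest ratio of any isotype was that of tRNA-Pro at 0.898, and tRNA-Gly came second. In 100k tRNA-Pro had 0.579 and tRNA-Ser 0.453, and tRNA-Gly came below both and below tRNA-Asp at 0.429. Of all reads that matched a listed tRNA, the members made up 33.3% in 12k, 25.6% in 35k, 55.1% in 70k and 50.6% in 100k, against 22.5% ± 2.99 in milk (SD, n = 3). For tRNA-Gly alone the share was 30.8% in 12k, 22.4% in 35k, 49.6% in 70k and 44.7% in 100k, against 19.2% ± 2.77 in milk. These fraction values are single libraries, and no test was made of these shares. All listed tRNAs together had 16357 RPM in 12k, 24986 in 35k, 6760.24 in 70k and 4530.38 in 100k, against 19919, 32914 and 29079.6 RPM in milk.

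No single fragment passed the test of differences from milk. Of the 365 fragments, 70 had at least 10 reads in at least 3 libraries and were tested, 32 of tRNA-Gly, 25 of tRNA-Glu, 12 of tRNA-Asp and 1 shared. They held 91.7% to 95.8% of the member reads of a library. edgeR's quasi-likelihood test, adjusted over all 5681 sequences tested, called 0 of the 70 in the 4 fractions together against milk, where 0.0352% of all sequences were called. It called 0 in 12k, where 1.67% of all were called, 0 in 35k (2.36%), 0 in 70k (1.13%) and 0 in 100k (3.93%). At an unadjusted p under 0.05 there were 8 of the 70 in the 4 fractions together (17.5% of all sequences), 11 in 12k (10.4% of all), 6 in 35k (12.6%), 17 in 70k (23.2%) and 17 in 100k (23.2%). In 70k and 100k these counts stood near the shares of all sequences. DESeq2 called 5 of the 70 in the 4 fractions together (7.27% of all sequences), 1 in 12k (3.24%), 0 in 35k (4.37%), 11 in 70k (14.8%) and 17 in 100k (16.1%). All of its calls for single fractions were lower than milk, among them anticodon TCC at 1 to 15 of tRNA-Gly in 70k (log2 fold change -5.03 ± 0.87 SE, adjusted p = 1.09e-06, DESeq2) and in 100k (-3.71 ± 0.84, adjusted p = 3.68e-04). For the 4 fractions together DESeq2 called 2 higher and 3 lower, and the higher ones included positions 52 to 65 of tRNA-Glu (log2 fold change 6.45 ± 1.72, adjusted p = 0.00647, DESeq2). In edgeR the same fragment had an adjusted p of 0.0998. It passed the read filter only through the fractions, where it was high, so its call is not independent of that filter. The median edgeR log2 fold change of the 70 members was -1.17 in the 4 fractions together, -0.80 in 12k, -0.90 in 35k, -2.11 in 70k and -2.19 in 100k. Over all 5681 sequences it was -0.18, -0.56, -0.53, -0.98 and -0.87.

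Summed by tRNA and place, the 5' end and 3' end of tRNA-Glu and the 3' end of tRNA-Asp were called lower in both 70k and 100k, and both ends of tRNA-Gly in 100k. In both fractions the share of member sums that was called lay below that of all sums. The test covered 53 such sums of all listed tRNAs, 9 of them of the members, with edgeR's quasi-likelihood test and the file totals as library sizes. In 70k, 3 of the 9 were called lower and 0 higher, where 52.8% of all sums were called. These were the 3' end of tRNA-Glu (log2 fold change -3.59 ± 0.91 SE, adjusted p = 6.92e-04, edgeR), the 5' end of tRNA-Glu (-2.68 ± 0.89, adjusted p = 0.00889) and the 3' end of tRNA-Asp (-2.24 ± 0.93, adjusted p = 0.0325). In 100k, 5 of the 9 were called lower and 0 higher, where 62.3% of all sums were called. The 3' end of tRNA-Glu had a log2 fold change of -5.31 ± 1.04 (adjusted p = 7.04e-06, edgeR), the 5' end of tRNA-Glu -2.68 ± 0.89 (adjusted p = 0.00718), the 3' end of tRNA-Asp -2.89 ± 0.97 (adjusted p = 0.00774) and the 5' end of tRNA-Gly -1.65 ± 0.63 (adjusted p = 0.0184). The fifth was the 3' end of tRNA-Gly, with 0 reads (adjusted p = 0.00790). With all milk libraries, no inner sum of the 3 tRNAs passed in any comparison by edgeR with file totals. In 70k and 100k, the inner sum of tRNA-Gly had log2 fold changes of -0.05 ± 0.66 and -0.09 ± 0.66, that of tRNA-Asp -0.61 ± 0.76 and -0.70 ± 0.77, and that of tRNA-Glu -0.72 ± 0.71 and -1.37 ± 0.74.

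Apart from the 3' end of tRNA-Glu in 100k, the calls in 70k and 100k rested on the scale and on single milk libraries. That sum was called lower on each scale and with each milk library left out in turn. The median log2 fold change of all 53 sums was -2.49 in 70k and -2.68 in 100k, so most listed tRNAs stood lower by file totals. With TMM factors over the sums, which set that median at 0.17 in 70k and -0.27 in 100k, the 5' end of tRNA-Gly and the inner sums of all 3 tRNAs were called higher in both. That made 4 of the 9 member sums higher in each, where 20.8% of all sums were called higher and 13.2% lower in 70k, and 18.9% higher and 32.1% lower in 100k. The log2 fold change of the 5' end of tRNA-Gly was then 1.84 ± 0.18 in 70k (adjusted p = 1.31e-04, edgeR with TMM) and 0.74 ± 0.19 in 100k (adjusted p = 0.0114), and that of the tRNA-Gly inner sum was 2.53 ± 0.18 and 2.33 ± 0.18. The 3' end of tRNA-Glu was the only member sum still called lower on that scale, in 100k (-2.97 ± 0.63, adjusted p = 0.00450), and in 70k it had an adjusted p of 0.169. Relative to the other tRNAs, the inner sums and the tRNA-Gly 5' end thus stood higher, while by file totals none of them did. Without milk 1, 4 of the 9 sums were called in 70k (71.7% of all sums) and 6 in 100k (77.4% of all), all of them lower. The inner sum of tRNA-Glu was then among those in 100k (adjusted p = 0.00855, edgeR). Without milk 2, 2 were called in 70k (39.6% of all) and 3 in 100k (49.1% of all). Without milk 3, 0 were called in 70k (9.43% of all) and 2 in 100k (39.6% of all), the 3' ends of tRNA-Glu and tRNA-Asp. The 5' end of tRNA-Gly in 100k had an adjusted p of 0.25 without milk 2 and 0.215 without milk 3.

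**Figure D4:**
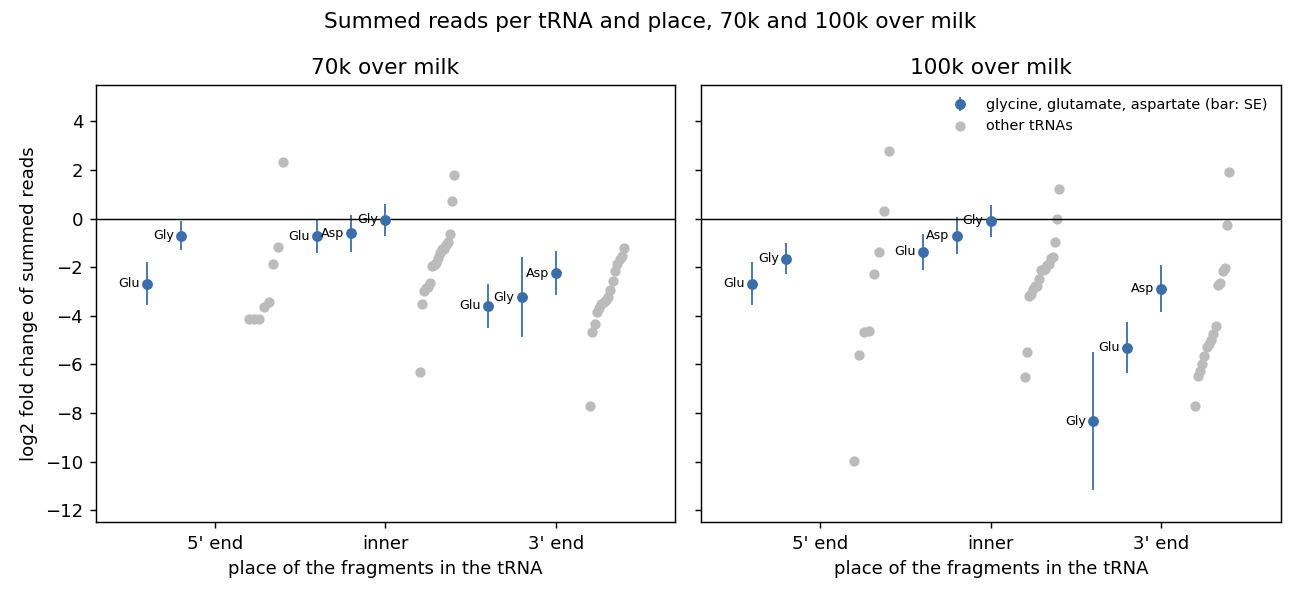
log2 fold change of the summed reads per tRNA and place, with file totals as library sizes, in 70k and in 100k over milk (blue: tRNA-Gly, tRNA-Glu and tRNA-Asp with SE bars; grey: other listed tRNAs). By file totals the inner sums of the 3 tRNAs lie between -1.37 and -0.05, and with TMM factors over the sums these inner sums and the tRNA-Gly 5' end turn positive in both fractions. The tRNA-Gly 3' end in 100k has 0 reads, so its fitted value is no measure of size.

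In the other comparisons no member sum passed. The 4 fractions together had 0 of 9 called (0% of all sums), 12k had 0 (1.89% of all) and 35k had 0 (0% of all), by edgeR. In each of these comparisons 1 of the 9 had an unadjusted p under 0.05, where 9.43% of all sums did in the 4 fractions together, 17% in 12k and 9.43% in 35k. DESeq2 called 0 in the 4 fractions together (5.66% of all sums), 0 in 35k (0% of all) and 1 in 12k (3.77% of all), where the 5' end of tRNA-Gly was higher on its scale (log2 fold change 1.11 ± 0.25, adjusted p = 1.79e-04, DESeq2), and edgeR with TMM factors called the same sum there (5.66% of all). Without milk 1, 2 sums were called lower in 12k, the 3' ends of tRNA-Glu and tRNA-Asp, where 32.1% of all sums were called.

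The isotypes whose levels ran most like those of the members over the 7 libraries, by Pearson's r of log2(RPM + 1), differed between the 3 tRNAs. For tRNA-Gly they were tRNA-Cys (r = 0.984), tRNA-His (0.943) and tRNA-Trp (0.936). For tRNA-Glu they were tRNA-Asn (0.982), tRNA-Val (0.977) and tRNA-Ile (0.967), and for tRNA-Asp tRNA-Thr (0.905), tRNA-Tyr (0.903) and tRNA-Arg (0.799). The levels of tRNA-Thr ran only from 3.61 RPM in 100k to 13.996 RPM in milk 3. All of them lay below the highest backward match of the members, 19.9 RPM in milk 1. The r of tRNA-Thr thus rests on few reads. All points share the same libraries and file totals, so the r values describe likeness only. They follow the order of rise and fall and not its size. In 70k and 100k tRNA-Gly stood at 0.652 and 0.394 of its milk mean. The ratios were far lower for tRNA-Cys (0.129 and 0.0230), tRNA-His (0.0243 and 0.0102) and tRNA-Trp (0.0959 and 0.0468). Among the members, r was 0.871 between tRNA-Glu and tRNA-Gly, 0.706 between tRNA-Glu and tRNA-Asp and 0.519 between tRNA-Asp and tRNA-Gly.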

How the data were processed

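Per the file headers, the deposited files give read counts of distinct sequences from 8 to 15 nt as whole numbers, which the authors had not normalized. How reads were trimmed, filtered or aligned is not given in the sources used here. A deposited RPM column was not used, and RPM was recomputed as reads over the file total, without 1 closing total line per file. Per the labels' protocols, total RNA was isolated with Trizol LS, inserts of about 8 to 35 nt were selected after adapter ligation and PCR, and sequencing ran for 51 cycles. File totals are those of the size window and not of whole libraries.

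No tRNA sequences came with the reference, which gave gene names and numbers. Reads of 12 to 15 nt were therefore matched exactly to 38 mature vertebrate tRNAs entered from general knowledge, 9 of the members and 29 of 18 other isotypes, and not checked against a bovine genome. Bovine variants missing from that list, and other RNAs that hold the same 12 to 15 bases, were not tested. No member fitted another listed isotype. Fragment sequences are therefore given by position only. The sums per isotype and end had been planned for isotypes taken from a reference and were run on this list instead.

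Differences were tested on counts with edgeR 4.0.16 in R 4.3.3 (quasi-likelihood, Benjamini-Hochberg at 0.05), with TMM factors for sequences of at least 10 reads in at least 3 libraries and file totals for sums. Models had 2 groups (4 fractions, 3 milk) or 5 group means. In the second, each fraction had 1 library and was assumed to vary like milk. Only the edgeR fit of sequences with TMM was tried on simulated data, with the same set spread for all sequences. The fits of sums and DESeq2 were not. Alternatives were DESeq2 1.42.0, other scalings and filters, 14 and 15 nt only, distinct sequences in place of reads, file totals without the most abundant sequence, a stricter 3' end, and leaving out each library. The SE of an edgeR log2 fold change was derived as its size over the square root of the test's F statistic. It was not estimated by edgeR. Shares have 95% Wilson intervals.

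Named fragments were, per tRNA, the 5 highest in milk, the highest of each end class, any called, and those with the 5 highest and 5 lowest ratios per fraction among members with at least 100 reads, and per tRNA the 3 isotypes most like it. The members, lists and tests were chosen with earlier results of these data known.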

Additional observations from a re-analysis of the deposited data

How the results depend on the processing

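Of the counts of called fragments, all 0 by edgeR, DESeq2 gave 5 of 70 in the 4 fractions together (7.27% of all sequences), 1 in 12k (3.24%), 11 in 70k (14.8%) and 17 in 100k (16.1%). A minimum of 1 read in 2 libraries gave 2 of 254 in 70k and 1 in 100k, beside 51 and 70 of all 77098 sequences. Of the member sums, DESeq2 and TMM factors each called 1 in 12k (3.77% and 5.66% of all sums). Without a filter, the sum shared by tRNA-Glu and tRNA-Gly was called higher in 35k (log2 fold change 7.71 ± 2.05 SE, 26 reads) and in 100k (5.75 ± 2.31, 5 reads). The 5' end of tRNA-Asp was called higher in 100k (6.42 ± 2.17, 8 reads). Neither sum had a read in milk, so these values are no measure of size. The 3' end of tRNA-Asp was then no longer called in 70k. Leaving out each milk library gave 0 to 2 called member sums in 12k (0% to 32.1% of all sums). It gave 0 to 4 in 70k (9.43% to 71.7% of all) and 2 to 6 in 100k (39.6% to 77.4% of all).

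Log2 fold changes of sums that turned positive were, by DESeq2 and by TMM in 70k, 0.025 and 0.34 (tRNA-Asp 3' end), 1.71 and 2.03 (tRNA-Asp inner), 1.55 and 1.86 (tRNA-Glu inner), 1.54 and 1.84 (tRNA-Gly 5' end) and 2.22 and 2.53 (tRNA-Gly inner). In 100k they were 1.96 and 1.77 (tRNA-Asp inner), 1.23 and 1.04 (tRNA-Glu inner), 0.94 and 0.74 (tRNA-Gly 5' end) and 2.52 and 2.33 (tRNA-Gly inner). Leaving out each milk library, the tRNA-Gly inner sum ran between -0.23 and 0.11 in 70k and between -0.27 and 0.079 in 100k, positive without milk 2. These scales are set by the tRNA sums, most of which stood lower by file totals.

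Counting distinct sequences in place of reads moved the log2 ratio to milk to -0.46 in 35k and -0.52 in 100k for tRNA-Gly. For tRNA-Glu it was then -0.53 for the mean of the 4 fractions, -0.31 in 12k, -0.43 in 35k, -0.68 in 70k and -0.75 in 100k, and for tRNA-Asp -0.31, -0.062, -0.52, -0.40 and -0.285. Without the most abundant sequence in the totals, 35k stood at -0.17 for tRNA-Gly and -0.25 for tRNA-Glu. With 14 and 15 nt only, tRNA-Glu stood at 0.25 in 35k, and tRNA-Asp at -0.41 for the 4 fractions, -0.63 in 12k, 0.19 in 70k and -0.14 in 100k. The cause of these moves was not tested.

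With 14 and 15 nt only, milk shares became 90.8% 5' end and 9.04% inner in tRNA-Gly, and 21.2% 5' end, 66.0% inner and 12.8% 3' end in tRNA-Glu. Counting as 3' end only what ends on the last tail base gave 0.0428% in tRNA-Gly, 12.5% in tRNA-Glu (71.7% inner) and 13.3% in tRNA-Asp (86.7% inner).

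No paired analysis was possible because the fractions have 1 library each. Matching to sequences shared by at least 2 reference genes was not run, since no gene sequences were at hand. tRNA-Asp rests on 155 to 975 reads per library, and several single fragments lie near the level of backward matches.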
